A study of Rattus norvegicus with 8 samples.

Results

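Asic2 encodes a subunit of the acid-sensing ion channels, and its polyadenylation sites were followed in hypothalamic RNA from 8 rats (Long-Evans, adult males). Its members were all sites of the expression table that carried the symbol Asic2, which were 123 of 73922 sites. Of these, 117 lay on the strand that held most of its reads, the minus strand of chromosome 10 (Rnor_6.0), and 6 lay on the plus strand. The gene was selected on its number of sites, over 100 with reads in these libraries, so that number is not a result.

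Acid-sensing ion channels open when the fluid around a neuron becomes acidic and let sodium into the cell. They belong to the family of degenerin and epithelial sodium channels, whose subunits assemble as trimers of the same or different kinds. ASIC2 joins ASIC1 in many brain neurons and helps to carry it to dendritic spines. The gene is very long, and alternative starts give the ASIC2a and ASIC2b forms, of which ASIC2b alone does not form a channel opened by acid.

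The labels put 4 rats in a diet-induced obesity group, fed freely on a high fat diet (1.71 kcal/g from fat), while the other 4, the controls, ate standard chow (0.51 kcal/g from fat). Tissue was taken after 36 days on the diets, and 8 rats gave 8 libraries. Body weights were not used here, so obesity is the name of the group. The assay, whole transcriptome termini site sequencing (WTTS-seq), counts reads at the 3′ ends of polyadenylated RNA, so a site is a place where such ends pile up. Apart from the diet the rats shared strain, sex, stage and tissue. The libraries held 1417531 to 1957726 reads. Sites of the whole table without a read numbered 14788 in control library 1 and 10659 in obesity library 1. The other 6 libraries had 4062 to 6622. Of 13 hypothalamic marker genes 12 were in the table, and their summed level, in scaled read counts (CPM), was 1241 to 1679 in control and 1021 to 1306 in obesity, most of it from Avp. CPM is the count divided by the library size after TMM normalization and multiplied by 1000000. For a gene total the library size is the sum over all genes and for a site the sum over all sites.

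The outermost sites of Asic2 on the minus strand were 933.1 kb apart. The most 5′ site lay at 69193775 to 69193784 and the most 3′ site at 68260698 to 68260713. The median gap between neighbouring sites was 5.89 kb and the largest 61.2 kb. The 117 sites held 8131 reads over the 8 libraries, from 30 to 441 at a site with a median of 54, and 101 of them had under 100 reads. Reads were seen in all 8 libraries at 58 sites. The most 3′ site held 0.713% of the reads and the most abundant site 5.42%, while the 10 most abundant together held 25.7%. The Asic2 reads were thus spread over many small sites along the whole gene. The table does not class the sites as exonic, intronic or distal, and no genome of the build was used here, so A-rich stretches beside them were not examined.

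The first comparison asked whether the gene as a whole gave more or fewer ends in obesity. Control libraries 1 to 4 held 761, 725, 565 and 813 reads at the 117 sites. Obesity libraries 1 to 4 held 1363, 728, 1386 and 1790. As gene totals these were 539, 485.1, 459.2 and 617.9 CPM in control and 1024, 590.9, 811.9 and 1218 CPM in obesity. Obesity libraries 1, 3 and 4 lay above every control library. Obesity library 2 lay below control library 4, so the groups overlapped. The exact 95% Poisson interval, which covers counting error only, was 548.8 to 635.5 CPM for obesity library 2 and 576.1 to 661.9 CPM for control library 4.

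**Figure D1:**
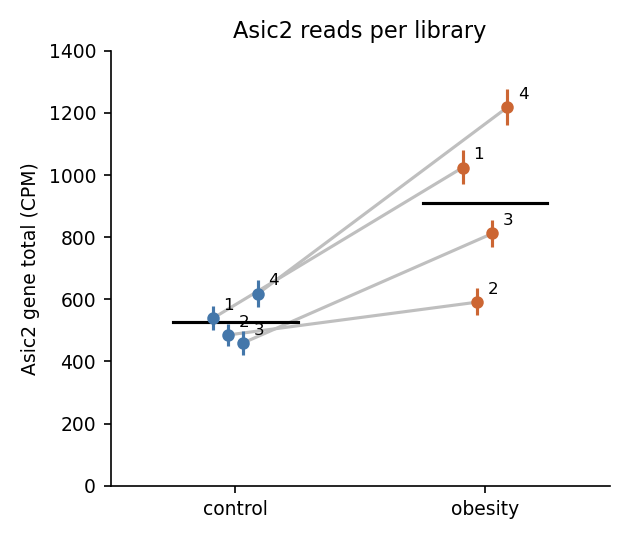
Asic2 gene total in CPM for each library, with control at left and obesity at right. Vertical bars are 95% Poisson intervals of the read count, black lines are group means and grey lines join libraries of the same number; obesity library 2, at 590.9 CPM, stands among the controls and the other 3 obesity libraries stand above them.

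The control mean was 525.3 ± 70.1 CPM and the obesity mean 911.2 ± 270 (SD, n = 4), a ratio of 1.73. The log2 fold change was 0.79 (SE 0.22), and the adjusted p by edgeR, over 12255 genes, was 0.921, so the difference did not pass 0.1. Its unadjusted p was 0.00217, which ranked 14 among all genes. In this fit 0% of genes passed an adjusted p of 0.1 as higher, while 2.54% were higher and 2.58% lower at an unadjusted p under 0.05. An exact permutation test on the 8 CPM values, 2-sided, gave a p of 0.0571. In bulk tissue, more cells that express a gene and more RNA per cell cannot be told apart. The gene was taken up with earlier results of these libraries known, so these p-values are not independent evidence.

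Within same-numbered libraries the total was higher in obesity in 4 of 4 pairs, at ratios of 1.9, 1.22, 1.77 and 1.97 for numbers 1 to 4. This held for 1099 of 12255 genes (8.97%). With the number as a block the log2 fold change of Asic2 was 0.76 (SE 0.14) and its edgeR adjusted p 0.0517, so the call changed. It was then 1 of 7 higher genes (0.0571% of those tested) beside 27 lower ones (0.22%), and its unadjusted p ranked 2. At an unadjusted p under 0.05 the blocked fit had 4.76% of genes higher and 6.16% lower. The blocked call changed when some pairs were left out. Without both libraries numbered 3 or 4 its edgeR adjusted p was 0.127 and 0.496. Without those numbered 1 or 2 it was 0.0616 and 0.000198. The unadjusted edgeR p was 0.000111, 6.47e-08, 0.000105 and 0.000765 without numbers 1 to 4. Leaving out number 1 or 3 gave nearly the same unadjusted p but different calls, since the adjustment also depends on the other genes. Without obesity library 2 alone and with no block, the log2 fold change was 0.95 at an adjusted p of 0.29.

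Asic2 reads were next followed along the gene in 10 segments of 93.3 kb, numbered from the 5′ end. In control the segments with most reads were the sixth, with 73.3 ± 24.3 CPM, and the first, with 72 ± 25. The same segments led in obesity, at 136.8 ± 42.6 and 132.1 ± 61.4 CPM (SD, n = 4). The ratio of the obesity to the control mean was above 1 in all 10 segments, from 1.19 in segment 9 to 2.03 in segment 5. Segments 8 and 9, toward the 3′ end, had the smallest ratios, 1.23 and 1.19, while segments 1 to 7 had 1.56 to 2.03 and segment 10 had 1.46. These ratios are descriptions without a test.

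The fifth segment, between 373.2 and 466.5 kb from the most 5′ site, had 37.7, 40.8, 38.9 and 54.7 CPM in control libraries 1 to 4. It had 81, 59.6, 111.3 and 97 CPM in obesity libraries 1 to 4. Groups did not overlap in this segment or in segments 3 and 4. In the other 7 segments they did. The margins were thin, with the lowest obesity library at 49.9, 53.1 and 59.6 CPM in segments 3, 4 and 5. The highest control library there had 45.6, 47.4 and 54.7 CPM. Segments share 1 gene total and the same 8 libraries, and no such count was made for other genes, so this is a description. Obesity library 2 was the lowest obesity library in 8 of the 10 segments, and obesity library 3 in segments 2 and 4.

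**Figure D2:**
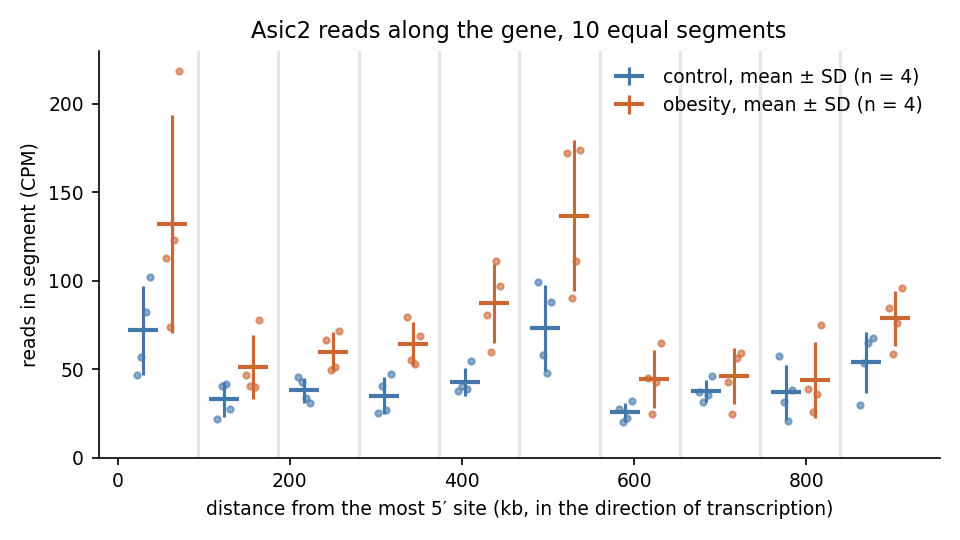
Reads of Asic2 in CPM in 10 equal segments, plotted against the distance in kb from the most 5′ site in the direction of transcription. Small points are libraries and bars are the mean ± SD of 4 control or 4 obesity libraries; the obesity mean lies above the control mean in each segment, least so in segments 8 and 9.

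Shares of the gene's own reads show whether the ends moved along the gene, apart from its total. The read-weighted mean position was 51.5%, 47.4%, 46.1% and 47.6% of the span from the 5′ end in control libraries 1 to 4. It was 46.9%, 45.2%, 46.5% and 43.4% in obesity libraries 1 to 4. The groups overlapped, with means of 48.1% ± 2.33 and 45.5% ± 1.59 (SD, n = 4, exact permutation p 0.0857, adjusted 0.274, 2-sided). Among sites with at least 100 reads the difference had the opposite sign, at 2.45 percentage points in place of -2.63.

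None of 16 such measures passed an adjusted p of 0.1 by the exact permutation test, whose smallest possible p is 0.0286. At unadjusted values, 0 were under 0.05. The share in segment 8 was 8.67%, 7.59%, 8.5% and 8.61% in control and 5.58%, 4.95%, 8.08% and 5.92% in obesity, lower in 4 of 4 pairs (exact permutation p 0.0571, adjusted 0.274). The share at the most 3′ site was 0.263%, 0%, 0.531% and 0.246% in control and 1.47%, 0.275%, 0.649% and 1.12% in obesity. It was higher in 4 of 4 pairs, with an exact permutation p of 0.0571 (adjusted 0.274). That site rested on 0 to 3 reads in each control library, where a count of 0 allows up to 3 reads, or 1.72 CPM before scaling in control library 2. The inverse Simpson number, a count of sites weighted by how evenly they share the reads, was 57.7 ± 5.11 in control and 54.3 ± 11 in obesity. Of all Asic2 reads the plus strand held 4.78% ± 0.689 in the control group and 3.89% ± 0.745 in the obesity group (SD, n = 4). For the 13 measures not given with a p here, the adjusted exact p was 0.274 to 0.714.

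The edgeR test of site usage asked the same over all sites at once. Asic2 had an unadjusted Simes p of 0.247 and an adjusted p of 1 over 7996 genes, where 1.39% of genes were under 0.05 unadjusted and 0% under 0.1 adjusted. With the block its unadjusted p was 0.448 and its adjusted p 1. A change in the use of its sites was not detectable at a depth of 4 to 12 median reads per site and library.

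Single sites of Asic2 were mostly higher in obesity, by small counts. Of the 117 sites, 99 (84.6%) had a log2 fold change above 0, against 52.4% of all 73922 sites. Their median was 0.61, against 0.05 over all sites. Among the 16 sites with at least 100 reads 15 were above 0, with a median of 0.89. In segments 1 to 7, 77 of 86 sites were above 0, with a median of 0.70. In segments 8 to 10 it was 22 of 31, with a median of 0.30. This split follows the segment ratios above and rests on the same reads, so it is not separate evidence. The sites share the total of 1 gene and the same 8 libraries, so they are not independent of one another or of the gene total. Median reads per site were 4 to 5 in control libraries and 6 to 12 in obesity libraries. Since only sites with at least 30 reads in all were held, some entered through their obesity reads and stay in these counts. The part of this floor in the counts was not tested.

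Of the sites, 0 passed an adjusted p of 0.1, and the lowest edgeR adjusted p was 1, or 0.302 with the block and 0.435 by the DESeq2 Wald test. Over all sites 0.00135% passed as higher and 0% as lower by edgeR, and with the block 0.00406% and 0.00135%. At an unadjusted p under 0.05, 13 Asic2 sites were higher and 0 lower, where 1.72% of all sites were higher and 1.41% lower. Without obesity library 1 there were 8. With the block 15 were higher and 0 lower, against 2.79% and 3.31% of all sites. The groups did not overlap at 10 Asic2 sites, all higher in obesity, where 1.43% of all sites were higher without overlap and 1.69% lower. At some of them the groups were set apart by 1 read or by scaling alone, as given below. These counts too include sites that entered through their obesity reads.

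**Figure D3:**
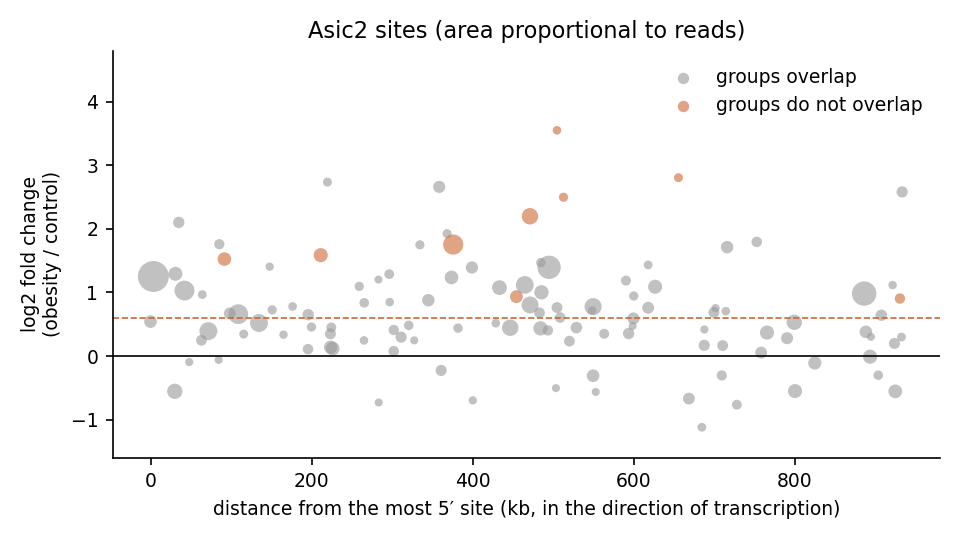
Log2 fold change of each Asic2 site on the minus strand (obesity over control, edgeR) against its distance in kb from the most 5′ site, with point area proportional to its reads. Orange points are sites whose groups do not overlap, the dashed line is the median of 0.61, and 1 site with 0 reads in every control library is left out. Of all 117 sites 99 were above 0, the site left out among them.

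The most abundant site was the second from the 5′ end, at 69190193 to 69190216. Control libraries 1 to 4 gave 5, 23, 33 and 56 reads there, and obesity libraries 1 to 4 gave 41, 29, 49 and 205. Obesity library 4 held 205 of its 441 reads and control library 1 only 5. Its log2 fold change was 1.25 (SE 0.70, edgeR adjusted p 1). Without this site the gene total had a log2 fold change of 0.77, against 0.79 with it.

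The next most abundant site lay near the 3′ end, at 68307861 to 68307873, 885.9 kb from the most 5′ site. Its reads were 7, 20, 31 and 25 in control and 57, 27, 63 and 44 in obesity. Obesity library 2, with 18.7 CPM, lay below control library 3, with 22.8 CPM, and the others in obesity lay above all controls. The log2 fold change was 0.98 (SE 0.50, edgeR adjusted p 1).

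Sites in the middle of the gene followed. The site at 68699000 to 68699003 had 18, 17, 9 and 20 reads in control and 72, 14, 40 and 61 in obesity, with obesity library 2 at 9.7 CPM inside the control range. The site at 68817998 to 68817999 had 13, 5, 8 and 13 reads in control and 44, 16, 34 and 54 in obesity. There the groups did not overlap, since the lowest obesity library had 11.1 CPM and the highest control library 8.56. Its log2 fold change was 1.75 (SE 0.52, edgeR adjusted p 1, and 0.302 with the block).

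The other 4 named sites without overlap had 31 to 124 reads in all. At 68722710 to 68722711 the reads were 5, 3, 4 and 8 in control and 34, 11, 14 and 45 in obesity, a log2 fold change of 2.2 (SE 0.64). At 68982482 to 68982485 they were 5, 7, 4 and 5 in control and 13, 9, 23 and 26 in obesity, a log2 fold change of 1.59 (SE 0.60). Both kept an edgeR adjusted p of 1. At 68833629 to 68833630 every control library had 0 reads, and the obesity libraries had 3, 1, 11 and 16. The obesity mean there was at least 2.23-fold higher than 3 reads per control library would give. At 68689127 to 68689160 the reads were 0, 0, 0 and 2 in control and 19, 2, 3 and 8 in obesity. Obesity library 2 and control library 4 had 2 reads each at that site, so scaling to CPM alone set them apart. The table held only sites with at least 30 reads in all. The site at 68833629 passed this floor through its obesity reads alone, and the one at 68689127 almost so. At 68722710 and 68982482 the control reads alone were under the floor too. The direction at these 4 sites is therefore not a result.

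Not every abundant site stood apart as clearly. Of the 16 sites with at least 100 reads, 15 still had a log2 fold change above 0. The site at 69121909 to 69121941 had 16, 12, 18 and 14 reads in control and 10, 17, 37 and 25 in obesity, a log2 fold change of 0.39 (SE 0.51). The site at 69059085 to 69059086 had 17, 22, 12 and 7 reads in control and 3, 18, 28 and 41 in obesity, with the highest and the lowest value both in obesity. The site at 68644352 had 36 of its control reads in library 1 and 64 of its obesity reads in library 1, and 1 to 12 in each other library. The remaining 3 of the 10 most abundant sites had log2 fold changes of 1.03, 0.66 and 1.12, and their groups overlapped. The most 5′ site had 0, 7, 4 and 17 reads in control and 5, 6, 4 and 31 in obesity.

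Many long neuronal genes carry numerous sites, and Asic2 was set beside the other 30 genes with over 100 sites. It ranked 22 by number of sites. Its neighbours in that order were Il1rapl1, Csmd1 and Nlgn1 with 129, 128 and 126 sites and Ntm, Ube3a and Dpp6 with 122, 121 and 119. Their log2 fold changes were -0.04, 0.27 and 0.10 above it and 0.09, -0.05 and 0.28 below it, with an SE of 0.18 to 0.2. Just inside the limit of 100 sites stood Ctnna2 with 102, and just outside it Map1b with 96. Asic2 had the fewest reads of the 31 genes. Its spread over its sites was the most even by a small margin, with an inverse Simpson number of 0.615 per site. The others had 0.0558 to 0.609, the highest in Il1rapl1. The part of the floor of 30 reads per site in this evenness was not tested. Its most abundant site took 5.42% of its reads, against a median of 6.48% in the others.

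Of the other 30 genes, 25 had a log2 fold change above 0, with a median of 0.20 and a range of -0.08 to 0.52, while the median over all genes was 0.00. With or without the block, 0 of them passed an adjusted p of 0.1 (edgeR), and at an unadjusted p under 0.05 without it 5 were higher and 0 lower, where 2.54% of all genes were higher and 2.58% lower. With the block 10 were higher and 0 lower, where 4.76% of all genes were higher and 6.16% lower. The fold change of Asic2 was the largest of the 31. Tenm2, a synaptic adhesion gene, came next at 0.52 (SE 0.18). Rbfox1, a neuronal splicing factor gene with the most sites of all, had 0.43 (SE 0.18).

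**Figure D4:**
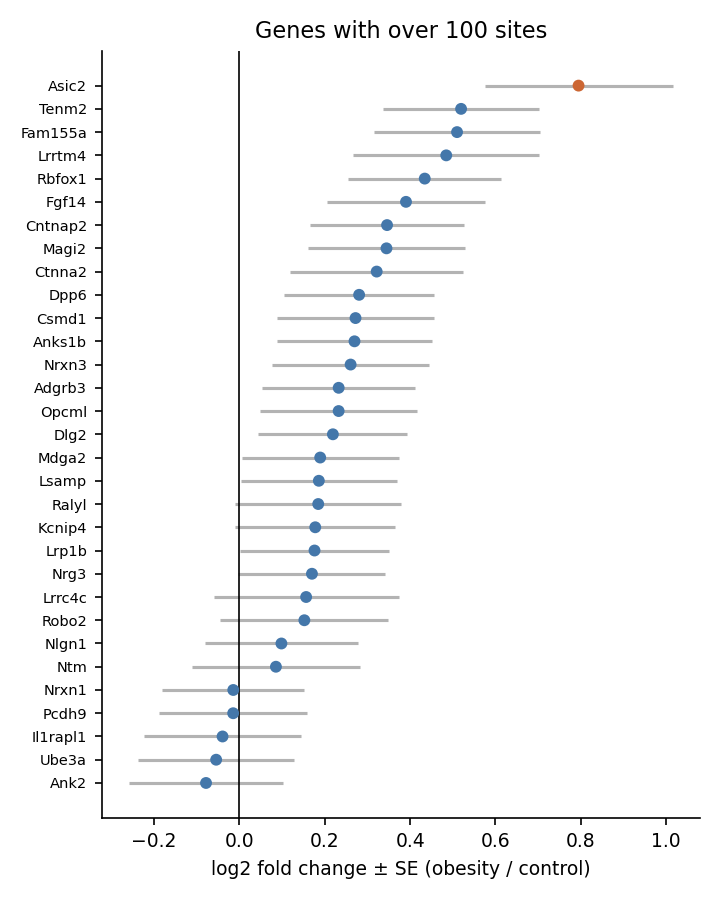
Log2 fold change (obesity over control) with its SE (edgeR) for the 31 genes with over 100 sites, sorted by value. Asic2, in orange, has the largest at 0.79, and 25 of the other 30 lie above 0.

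Groups did not overlap for 2 of the other 30 genes, both higher in obesity, where 1.68% of all genes were higher without overlap and 1.77% lower. Together the 30 held 44470, 43016, 36503 and 44169 CPM in the 4 control libraries. The 4 obesity libraries had 54370, 42126, 44040 and 53361 CPM, of which libraries 1 and 4 lay above all controls and libraries 2 and 3 inside the control range. The part of this level in the Asic2 result was not tested beyond the following ratio. Asic2 had 12.1, 11.3, 12.6 and 13.99 reads per 1000 reads of these genes in control libraries 1 to 4. In obesity libraries 1 to 4 it had 18.8, 14.03, 18.4 and 22.8. The means were 12.5 ± 1.13 and 18.5 ± 3.6 (SD, n = 4), a difference of 6.04, higher in 4 of 4 pairs (exact permutation p 0.0286, 2-sided, the smallest that can be reached). Groups did not overlap, but obesity library 2 and control library 4 were nearly level. With any single control library left out the exact permutation p was 0.0571, and with the libraries paired by number it was 0.125, the smallest that 4 pairs allow. This ratio was chosen after the values were seen.

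The family of Asic2 was followed in the same fit over all genes. Of 8 genes listed for the family of acid-sensing and epithelial sodium channels, 5 were in the table, and Asic2 held most of their reads. Without the block 0 passed an adjusted p of 0.1, and with it Asic2 alone did. The median log2 fold change of the 5 was -0.07.

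Asic1, whose product forms the main proton-gated channel of brain neurons, had 91.4, 47.5, 79.7 and 85.1 CPM in control. The obesity libraries had 82.6, 56, 81.4 and 69.4. Its log2 fold change was -0.07 (SE 0.27, edgeR adjusted p 0.992), and the groups overlapped widely. Asic3, known best from sensory neurons, had a log2 fold change of -0.33 (SE 0.46) from 1 site. Asic4, whose product does not open to acid by itself, had -0.43 (SE 0.46) from 2 sites.

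Scnn1a, the alpha subunit of the epithelial sodium channel, had 0.813 to 4.96 CPM in control and 3 to 14.3 in obesity, a log2 fold change of 1.09 (SE 0.81). The adjusted p of these last 3 genes was 0.942 to 0.982 (edgeR). The rise of Asic2 under the block was not accompanied by a call in any other family member. Whether Asic2 and Asic1 differed in their change was not tested.

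**Figure D5:**
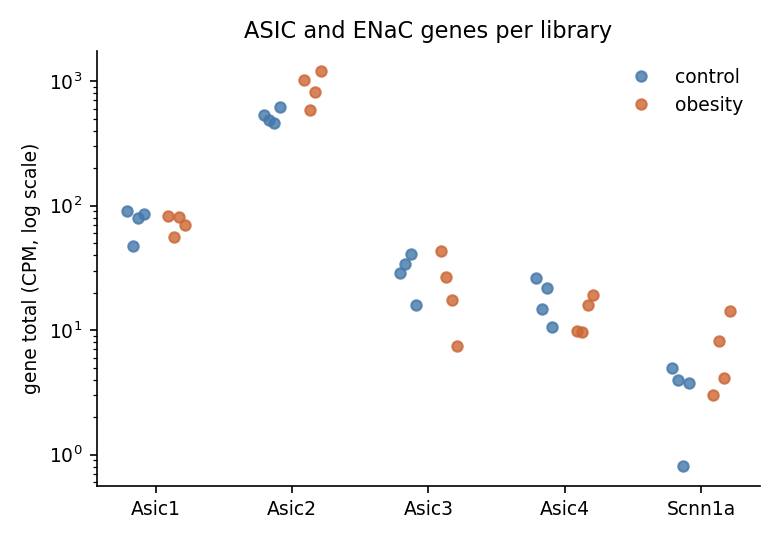
Gene totals in CPM, on a log axis, of the 5 measured genes of the acid-sensing and epithelial sodium channel family in 4 control and 4 obesity libraries. Asic2 is the one gene of which 3 obesity libraries lie above all controls, from 811.9 to 1218 CPM, while Asic1 overlaps throughout.

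Genes for proteins that bind or regulate these channels were measured for 11 of 12 listed, with a median log2 fold change of -0.13 and 0 past an adjusted p of 0.1 with or without the block. At an unadjusted p under 0.05, Nedd4l was higher and Stoml1 lower, with and without the block. Over all genes 2.54% were higher and 2.58% lower at that level, or 4.76% and 6.16% with the block, and these shares stand beside the following lists too. Nedd4l, a ubiquitin ligase that removes epithelial sodium channels from the membrane, had a log2 fold change of 0.64 (SE 0.29). Stoml1, of the stomatin family, had -1.32 (SE 0.58). Both had an edgeR adjusted p of 0.921.

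Of 8 other proton-sensing channels and receptors 5 were in the table, with a median of -0.23 and 0 calls. All 15 genes of pH-regulating transporters and carbonic anhydrases were in it, with a median of -0.06 and 0 calls. At an unadjusted p under 0.05, 0 of the 5 were higher or lower with or without the block. Of the 15, 1 was higher and 0 lower without the block, and 2 were higher and 1 lower with it. The 1 was Car10, which encodes a carbonic anhydrase relative without enzyme activity, at 0.56 on the log2 scale (SE 0.26, edgeR adjusted p 0.921). The 19 measured of 20 listed long neuronal genes had a median of 0.22, with 16 above 0 and 0 calls. Of the 19, 2 were higher and 0 lower at an unadjusted p under 0.05, which were Rbfox1 and Fgf14, the latter with a log2 fold change of 0.39 (SE 0.18). With the block 7 of the 19 were higher and 0 lower at that level.

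Markers of cell types were set beside the Asic2 total. The 9 measured neuronal markers had a median log2 fold change of -0.13, and their summed level was 4854 to 5343 CPM in control and 4225 to 5166 in obesity. Obesity library 4, with the most Asic2, had the lowest value. Markers of oligodendrocytes (8 of 8) had a median of -0.20 and a summed level of 17519 to 23034 CPM in control and 13513 to 21252 in obesity. Those of astrocytes (8 of 8) had -0.21, with 3453 to 4652 and 2533 to 3966 CPM, and those of microglia (3 of 6) -0.06, with 74.4 to 114.6 and 30 to 101.5 CPM. No marker of these or the following sets passed an adjusted p of 0.1 (edgeR). At an unadjusted p under 0.05, 1 of 9 neuronal, 1 of 8 oligodendrocyte, 1 of 8 astrocyte and 1 of 3 microglial markers were lower and 0 higher, where 2.58% of all genes were lower. The part of these levels in the Asic2 result was not tested.

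The 12 measured hypothalamic markers had a median log2 fold change of -0.10, with members on both sides. Of the 12, 2 were higher and 3 lower at an unadjusted p under 0.05, where 2.54% of all genes were higher and 2.58% lower, and with the block 2 were higher and 4 lower. Those lower without the block were the peptide hormone genes Avp, Oxt and Sst, with -0.44 (SE 0.19), -0.74 (SE 0.30) and -1.36 (SE 0.54). The higher ones were Sim1, a transcription factor gene, with 2.03 (SE 0.82), and Crh, a releasing hormone gene, with 1.72 (SE 0.74). Both were low, at 0 to 7.6 CPM in control and 3.25 to 21.1 in obesity for Sim1, and at 0.67 to 3.8 and 6.49 to 15.2 for Crh. Groups did not overlap for Oxt, Sst and Crh, where 1.68% of all genes were higher without overlap and 1.77% lower. Of the oligodendrocyte markers above, Mal was lower in obesity without overlap too. The part of these markers in the Asic2 result was not tested.

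Markers of neighbouring tissue were uneven. Those of the anterior pituitary (3 of 5) summed to 126.6 CPM in obesity library 2 and to 6.13 to 56 in the other 7 libraries. In obesity library 2, Gh1 had 70.6 CPM and Lhb 47.1, against at most 0.813 and 6.5 elsewhere. Cga, the third of them, had 8.93 CPM there, against 50.3 in control library 1 and 41.6 in obesity library 3. Gh1 was higher at an unadjusted p under 0.05, with its reads almost all in that library. The choroid plexus marker Ttr (1 of 3) reached 98 in obesity library 4 and 0 to 1.5 elsewhere. Thalamic markers (3 of 4) had 61.6 to 128.4 CPM in control and 24 to 144.5 in obesity, and red blood cell markers (3 of 4) 42.2 to 61.8 and 21 to 91.2. Obesity library 2, the lowest of its group in Asic2, was thus the library with most Gh1 and Lhb but not Cga, and obesity library 4, the highest in Asic2, the one with most Ttr. The part of these markers in the Asic2 result was not tested.

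The genes most like Asic2 over the 8 libraries, by Pearson's r of log2(CPM + 1) among 8301 genes with a mean of at least 10 CPM, were LOC102553329, NEWGENE_1590969, Kcnb2, Plcb1 and Lrrn2. Their r was 0.970, 0.969, 0.968, 0.965 and 0.958. Kcnb2, a delayed rectifier potassium channel gene, had 39 sites and Plcb1, a phospholipase C gene, 58. The points share library, depth and the replicate numbers and include the difference between the groups, so the likeness is a description. These genes had log2 fold changes of 0.28 to 0.61.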

How the data were processed

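WTTS-seq read counts of 8 rat hypothalamus libraries, 4 per group, were analysed. The deposited values are raw counts of mapped reads per polyadenylation site, without normalization. Per the labels, Bowtie2 2.2.3 and Rnor_6.0 were named in the submitters' processing notes. How reads were clustered into sites and assigned to genes is not given in the sources used here. A paper linked to these libraries describes another exposure, so groups follow the labels and it served for style only.

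A line without a site, with the total of control library 1 (1710888 reads), was left out. It equals that library's total, so it is not a share of the reads. The 273 sites with a mark in the symbol field were treated as sites without a gene. The lowest site total was 30 reads, so rarer sites were not seen. Gene totals were summed over the strand with most reads of the gene (12255 genes). Gene and site counts were tested with edgeR 4.0.16 in R 4.3.3 (TMM, robust quasi-likelihood F test, diffSpliceDGE for site usage), with Benjamini-Hochberg adjustment over all features and a threshold of 0.1. DESeq2 1.42.0 was an alternative. SEs are the log2 fold change divided by the root of F. Exact permutation tests ran over 70 arrangements in Python 3.11.15. The scripts were tested on simulated counts.

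Deviations from group means correlated at 0.271 to 0.397 between same-numbered libraries and at -0.226 to 0.0944 between others (log2 CPM of 8302 genes). The numbers were therefore taken to pair libraries in the blocked fits and paired tests. The main fits and exact permutation tests ignored them, since the labels do not say that the numbers pair rats. What rats of the same number had in common is not stated in the labels. The reads carry no molecular identifiers in the table, so intervals and limits at 0 reads cover counting error only.

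Sites named are the 10 most abundant, the outermost pair, and up to 5 higher and 5 lower with the smallest p among those without overlap. Of other genes, family members, list members with an unadjusted p under 0.05, the 3 neighbours on each side in number of sites and the 5 most alike are named. Other names were chosen after their values were seen. The gene, the lists and the rules were chosen with earlier results of these data known.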

Additional observations from a re-analysis of the deposited data

Results flagged for a closer look

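Over Asic2 measures, named sites and family genes, 76 groups of 4 libraries were checked. In 8 of them Dixon's test set a library apart from its group, where independent checks would give about 3.8 by chance. The checks share reads, as with the share and the CPM of the most abundant site, so 8 against 3.8 is not a test. Obesity library 4 held 11.5% of its Asic2 reads at the most abundant site (69190193 to 69190216), where the rest of its group had 3.01% to 3.98%, and 114.9 CPM there against 20.1 to 24.8. It had 17.4 CPM at the most 5′ site, against 2.02 to 4.16, and 7.49% of its Asic2 reads in segment 9, against 5.06% to 5.12%. Obesity library 1 had 36.2 CPM at the site at 68644352, against 2.08 to 6.73 in the others of its group. Control library 2 had 7.59% of its Asic2 reads in segment 8, against 8.5% to 8.67%, and control library 3 had 25.5% at the 10 most abundant sites, against 21% to 21.8%. Control library 4 had 1.32 CPM at the site at 68689127 to 68689160, from 2 reads, where the other controls had 0.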

How the results depend on the processing

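The Asic2 gene total was higher in obesity under every alternative run. Its log2 fold change passed an edgeR adjusted p of 0.1 with the replicate block alone (0.76), and, in fits added after the data were seen, with the block and DESeq2 size factors (0.77), both strands (0.74), filterByExpr (0.76), or without both libraries numbered 1 (0.70) or 2 (0.91), at adjusted p-values of 0.000198 to 0.0794. It did not pass with the block and without both libraries numbered 3 or 4, or in any fit without the block. Leaving out single libraries without the block gave 0.64 to 0.95. Asic2 sites at an unadjusted p under 0.05 numbered 13, and 4 with filterByExpr, which kept 30 of the 117 sites. Leaving out single libraries gave 8 to 15. Site usage of Asic2 and the 16 position measures had 0 calls under each alternative, and the paired sign-flip test of the measures cannot go below 0.125. With sites of at least 100 reads alone, some differences changed sign. They became -3.8 percentage points in segment 1, 0.99 in segment 10, 2.45 in mean position and 0.198 in the inverse Simpson number. The cause of these changes was not tested. Segments 3, 4, 7 and 8 held no site of at least 100 reads and the most 3′ site had fewer, so they gave no value. Leaving out single libraries gave -0.36 to 2.61 in segment 1, -1.43 to 0.22 in segment 2, -1.42 to 0.203 in segment 3, -0.127 to 0.466 in segment 7, -0.631 to 2.27 at the most abundant site and -7.14 to 1.19 in the inverse Simpson number. Asic2 per 1000 reads of the other genes with over 100 sites differed by 6.04, at a paired exact p of 0.125, the smallest possible, and by 4.6 to 7.54 with single libraries left out. The lists without Asic2 had 0 calls under each alternative. Median reads of 4 to 12 per site and library limit what single sites can show.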

Other observations

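The 6 Asic2 sites on the plus strand held 358 reads, 24 to 44 in each control library and 29 to 72 in each obesity library. Their log2 fold changes ran from 0.07 to 1.35, and 0 had an unadjusted p under 0.05 (edgeR). Between the outermost Asic2 sites, 2 sites on the same strand were assigned to other genes. The long non-coding RNA gene LOC103693402 (69068651 to 69068652) had 5, 8, 5 and 3 reads in the 4 control libraries. Its reads in the 4 obesity libraries were 0, 2, 31 and 9. The pseudogene LOC103693444 (69178053 to 69178063) had 5, 8, 2 and 1 reads in control and 4, 9, 15 and 6 in obesity. Since these genes overlap Asic2 on its own strand, the assignment of sites between them is uncertain.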
